A study of Caenorhabditis elegans with 4 samples.

Results

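The mitochondrial respiratory chain passes electrons from NADH and succinate to oxygen through complexes I to IV of the inner mitochondrial membrane, with ubiquinone and cytochrome c as mobile carriers, and the protons pumped on the way drive ATP synthase. In *C. elegans* mutations of several of its subunits, such as *isp-1*, *clk-1*, *gas-1* and *mev-1*, are known to change lifespan or the resistance to oxidative stress, and RNAi against others prolongs life when it is begun in larvae. The genes described here are those nuclear genes that the probe table of the array names with the symbols of the chain (beginning *nuo-*, *nduf-*, *cox-*, *atp-*, *ucr-* or *asg-*) or as *gas-1*, *lpd-5*, *isp-1*, *cyc-1*, *cyc-2.1*, *cyc-2.2*, *mev-1*, *sdhd-1*, *clk-1* or *ant-1.1*. This gave 45 genes of 17118 measured, with 61 probe sets of 22548. They comprise 13 genes of complex I, 2 of complex II, 6 of complex III, 7 subunits and 6 assembly factors of complex IV, 7 of ATP synthase, both cytochrome c genes, the ubiquinone gene *clk-1* and the ADP/ATP carrier gene *ant-1.1*. The rule chose them by name and used no measured value.

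Whole worms of the wild-type strain N2, harvested at day 8 of adulthood, supplied the RNA for Affymetrix arrays, 2 of worms given RIF, an antibiotic that blocks bacterial RNA polymerase, and 2 of worms given DMSO, its solvent, each labelled as a separate biological replicate. All worms were held from young adulthood in liquid medium on heat-killed OP50-AMP with carbenicillin, amphotericin B and FuDr against progeny, with a second feeding on day 5. The labels give FuDr as 0.6 mM. In the paper's methods this is the strength of the solution added to the cultures, so that in the medium was probably lower. No dose of RIF stands in the labels, and 1 of their fields, which speaks of control and *idr-1* RNAi, goes against the titles and the design and was not used. In RNA of whole worms, fewer cells of a type and less RNA per cell cannot be told apart. Every value is the deposited log2 expression value, on which a difference of 1 is 2-fold, and a gene was taken by its probe set of highest mean level. A gene rose or fell if it passed the threshold the study states, at least a 2-fold change with an unadjusted p under 0.05, here from limma. Where an adjusted p is given, it is limma's after Benjamini-Hochberg adjustment across all probe sets.

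Both groups of arrays were alike in overall level, with medians of 1.90 and 1.85 on the RIF arrays and 1.82 and 1.82 on the DMSO arrays, and 8 controls for transcripts foreign to the worm read 0.44 to 1.62. DMSO replicate 2 stood apart in RNA quality. The 5′ minus 3′ difference of the quality transcripts, lower in more degraded RNA, had medians of -1.28 and -1.25 on the RIF arrays and of -0.99 and -2.16 on the DMSO arrays. The 12 members on which it lay over 0.5 from DMSO replicate 1 are therefore also given without it. Over the 45 genes, the median level was 7.37 and 7.28 on the RIF arrays, against 7.32 and 7.29 on the DMSO arrays. Of these genes, *cyc-2.2* and *cox-10* alone had both group means within the range of the foreign controls, so for them a change could hardly be seen.

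Expression of the respiratory chain genes differed little between worms given RIF and worms given DMSO. None of the 45 genes rose and none fell, while 1.27% of all genes rose and 1.55% fell. Among the 2103 genes whose level was at or above the members' lower quartile, the shares were 2% and 3.71%. An unadjusted p under 0.05 at any fold was reached by 0 of the genes in either direction with limma (4.39% of all genes higher and 4.46% lower), and by 1 in each direction with the methods' t-test, neither at 2-fold. No member had an adjusted p from limma under 0.05 (0.00584% of all genes higher and 0.0175% lower), and the lowest was 0.596. The log2 fold changes ran from -0.67 for *cox-11* to 0.54 for *ucr-2.1*, with 43 of 45 within 0.5 of zero. Their median was 0.07 and that of all genes 0.03. Values lay above 0 for 26 genes and below 0 for 19, shares of 57.8% and 42.2%, where all genes gave 55.7% and 44.3%. Both RIF arrays read above both DMSO arrays for 9 genes (20%) and below them for 6 (13.3%), while this held for 22.9% and 16% of all genes and for 22% and 22.3% of those at or above that level.

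The range of changes compatible with these arrays is given for each gene by the 95% intervals of limma, which are not adjusted for the number of genes. For 37 of the 45 genes (82.2%) the whole interval lay within a 2-fold change in either direction. The share was 69.0% of all genes and 47.8% of the 9431 genes whose mean lay above the range of the foreign controls. Among the 2103 genes at or above the members' lower quartile of level it was 57.0%. The 37 include *cyc-2.2* and *cox-10*, which read within the range of the foreign controls, so their intervals hardly limit a change. The interval lay within 1.5-fold for 13 of the 45, against 4834 of all 17118 genes, 936 of the 9431 and 317 of the 2103. The median standard error was 0.18. The genes whose intervals reached beyond 2-fold were *nduf-7*, *nduf-2.2*, *ucr-2.1*, *ucr-2.3*, *cox-7C*, *cox-11*, *cox-18* and *cox-19*. A p that misses the threshold does not show that a gene had the same level in both groups.

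**Figure D1:**
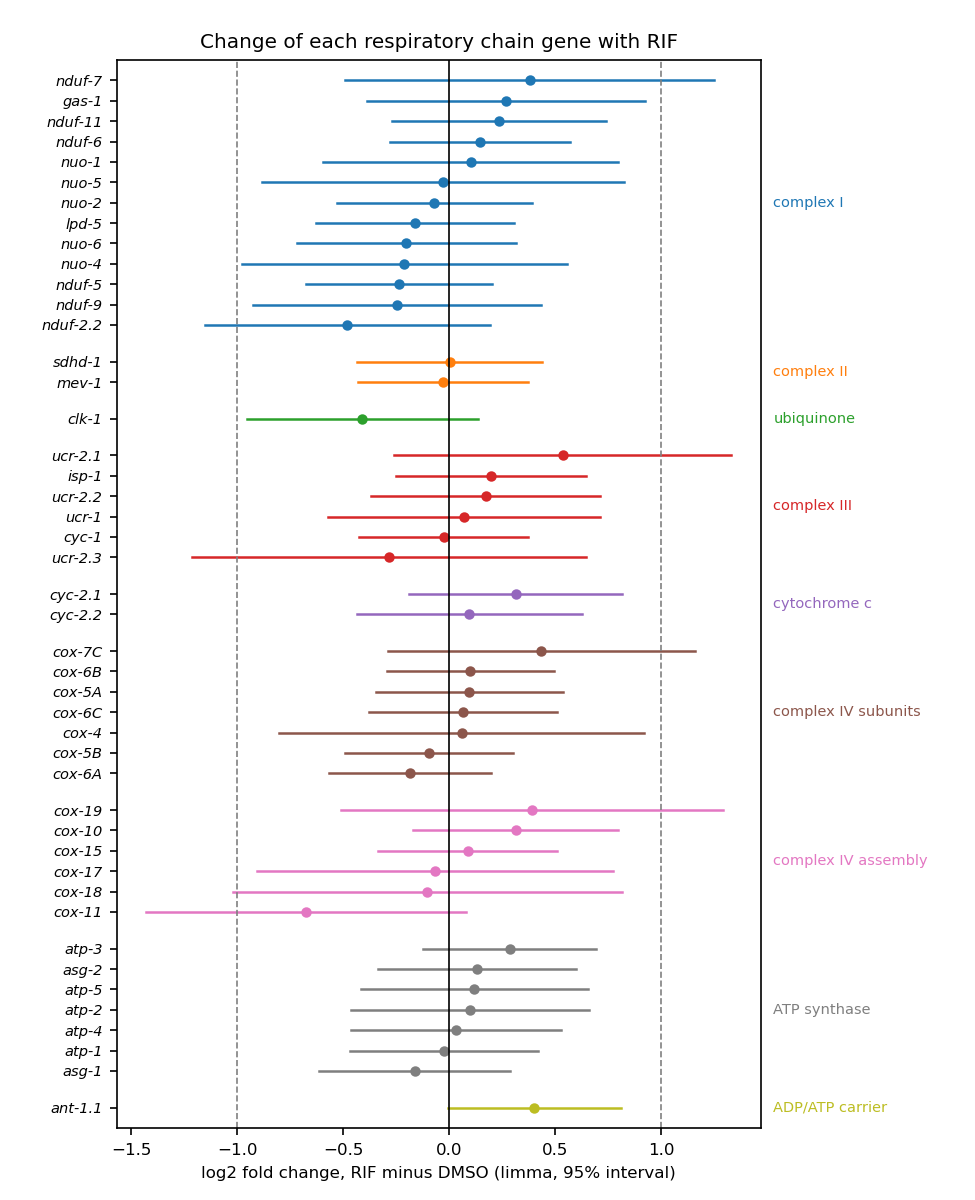
Log2 fold change of each of the 45 respiratory chain genes, RIF minus DMSO (x axis), grouped by complex, with limma's 95% interval as a line and 2-fold changes as dashed lines. All points lie between -0.67 and 0.54, and 37 of the 45 intervals stay within the dashed lines.

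Complex I takes electrons from NADH. Of its 13 genes, 5 had values above 0 and 8 below, and the median was -0.07. The lowest was *nduf-2.2*, a paralog of *gas-1*, which read 5.73 and 6.26 on the RIF arrays and 6.36 and 6.59 on the DMSO arrays. Its groups did not overlap, and the log2 fold change was -0.48 (95% interval -1.15 to 0.19; adjusted p = 0.674 from limma). Leaving out RIF replicate 2 gave -0.75, and leaving out RIF replicate 1 gave -0.21, where *nuo-6* was lower, at -0.36. The paralog itself, *gas-1*, which encodes a core subunit near the ubiquinone site, read 6.19 and 5.88 with RIF, against 6.00 and 5.53 with DMSO. These groups overlapped, and the value was 0.27 on this probe set, or 0.03 without DMSO replicate 2, and -0.07 on its second one. The highest value in the complex was that of *nduf-7*, a core subunit with an iron-sulfur cluster, at 0.38 (standard error 0.32). It read 7.33 and 7.04 on the RIF arrays and 7.19 and 6.42 on the DMSO arrays, so DMSO replicate 2 was the low array and the groups overlapped. Its value was -0.0022 without that array and 0.76 without DMSO replicate 1, so its rank in the complex rests on DMSO replicate 2.

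The flavoprotein that accepts electrons from NADH is encoded by *nuo-1*, whose values were 7.33 and 7.42 with RIF and 7.58 and 6.97 with DMSO. RIF lay between the DMSO arrays for this gene, and likewise for *nuo-5*, the largest iron-sulfur subunit, with 5.44 and 5.27 against 5.78 and 4.99. For the core subunit gene *nuo-2* the RIF arrays read 7.40 and 7.13 and the DMSO arrays 7.32 and 7.35, a difference of -0.07. The accessory subunit gene *nuo-6*, a mutation of which extends lifespan, had 6.24 and 5.92 with RIF, against 6.18 and 6.38 with DMSO. Its difference was -0.20 and the groups overlapped. Among the other accessory subunits, *nduf-6* (7.99 and 7.93 with RIF, 7.71 and 7.91 with DMSO) was higher on both RIF arrays and *nduf-5* (7.72 and 7.48 with RIF, 7.86 and 7.81 with DMSO) was lower on both, by 0.15 and -0.24 on the log2 scale. The remaining values were 0.23 for *nduf-11*, -0.16 for *lpd-5*, -0.21 for *nuo-4* and -0.25 for *nduf-9*, all with overlapping groups.

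Complex II feeds electrons from succinate into the chain and is also an enzyme of the TCA cycle. Its membrane anchor subunits hardly differed between the groups. *mev-1*, the cytochrome *b* large subunit, read 7.81 and 7.74 on the RIF arrays and 7.73 and 7.87 on the DMSO arrays, and its log2 fold change was -0.03 (95% interval -0.43 to 0.37). *sdhd-1*, the small subunit, read 7.26 and 7.14 against 7.10 and 7.29, with a value of 0.00. Neither gene was separated between the groups. The catalytic subunits lie outside the rule for the members. The iron-sulfur subunit gene *sdhb-1* had a value of 0.08, and those for the flavoprotein were at -0.38 for *sdha-1* (4.64 and 4.45 with RIF, 4.95 and 4.89 with DMSO) and at -0.77 for *sdha-2* (5.67 and 6.32 with RIF, 6.66 and 6.89 with DMSO; unadjusted p = 0.0467 and adjusted p = 0.581 from limma). Both flavoprotein genes were lower on each RIF array than on each DMSO array, and neither passed the 2-fold threshold.

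Ubiquinone carries electrons from complexes I and II to complex III, and *clk-1* encodes the hydroxylase of a late step in its synthesis. The gene read 4.64 and 4.23 with RIF, against 4.88 and 4.80 with DMSO, so the groups did not overlap. Its log2 fold change was -0.41 (95% interval -0.96 to 0.14; adjusted p = 0.665 from limma), and leaving out 1 RIF array gave -0.61 (replicate 1 out) or -0.21 (replicate 2 out). Of 6 other genes of ubiquinone synthesis measured, 5 lay below 0 (44.3% of all genes) and none passed the threshold. The highest was *coq-3*, a methyltransferase, at 0.47, and the lowest *coq-1*, which makes the side chain, at -0.30. *coq-1* read 3.18 and 2.62 with RIF, between the 4.05 and 2.35 with DMSO.

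Complex III passes electrons from ubiquinone to cytochrome c. Of its 6 genes 4 lay above 0, and the median was 0.12. The highest value of all the members was that of *ucr-2.1*, which encodes a core protein of this complex. It read 7.37 and 7.28 on the RIF arrays and 7.15 and 6.43 on the DMSO arrays, a log2 fold change of 0.54 (95% interval -0.26 to 1.33; adjusted p = 0.681 from limma). The groups did not overlap, but most of the difference came from DMSO replicate 2, and the value was 0.17 without it and 0.90 without DMSO replicate 1. Its paralogs did not share this position. *ucr-2.2* read 5.72 and 5.47 against 5.27 and 5.59 (0.17, and 0.32 on a second probe set), and *ucr-2.3* read 5.65 and 6.15 against 6.56 and 5.82 (-0.28), each pair being RIF against DMSO. Both paralogs overlapped between the groups.

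The Rieske iron-sulfur protein gene *isp-1* read 9.18 and 9.26 with RIF and 8.90 and 9.14 with DMSO. It was higher on both RIF arrays by 0.20, and its second probe set was too, by 0.29 (8.32 and 8.20 with RIF, 8.11 and 7.84 with DMSO). Neither difference passed, and the 95% interval of the first was -0.25 to 0.65. For cytochrome c1 (*cyc-1*) the RIF arrays read 5.95 and 5.90 and the DMSO arrays 6.03 and 5.89, a difference of -0.03. The other core protein gene, *ucr-1*, had a value of 0.07, with its RIF arrays at 7.05 and 7.16 between the DMSO arrays at 7.30 and 6.77.

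Cytochrome c has a pair of genes in the worm. *cyc-2.1* read 10.07 and 10.15 with RIF, against 9.62 and 9.96 with DMSO. The RIF arrays were both higher, and the log2 fold change was 0.31 (95% interval -0.19 to 0.82; adjusted p = 0.699 from limma). *cyc-2.2* read 1.01 and 0.64 with RIF and 0.68 and 0.78 with DMSO, all within the range of the foreign controls.

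**Figure D2:**
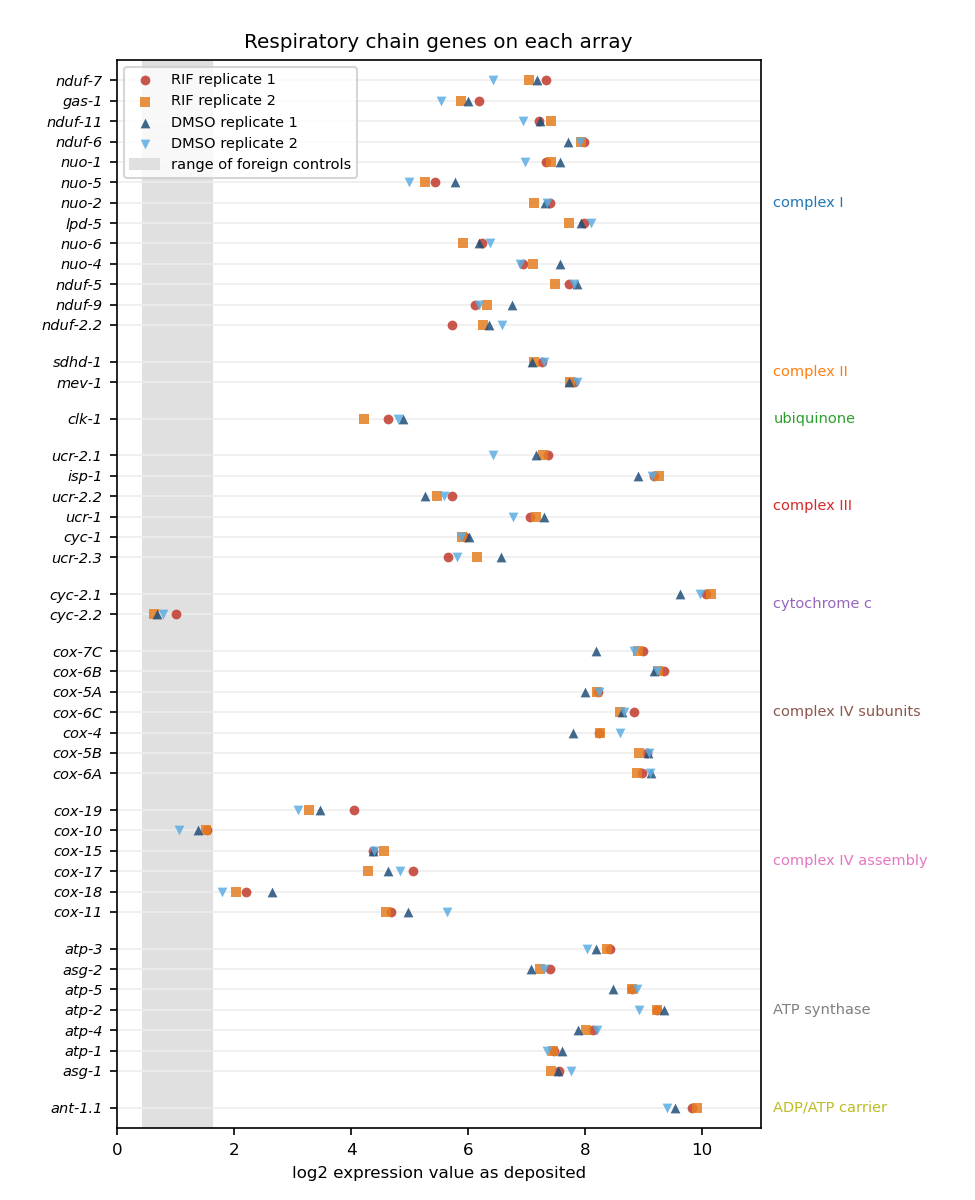
Deposited log2 value (x axis) of each of the 45 genes on the 2 RIF and the 2 DMSO arrays, grouped by complex, with the range of the foreign controls shaded. Symbols of RIF and DMSO interleave for 30 genes, and only *cyc-2.2* and *cox-10* lie in the shaded range on both group means.

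Complex IV, cytochrome c oxidase, hands the electrons to oxygen, and its catalytic subunits are encoded by mitochondrial DNA. The 7 nuclear subunit genes had a median of 0.07, with 5 above 0 and 2 below. *cox-7C* was the highest, with 8.99 and 8.91 on the RIF arrays and 8.20 and 8.84 on the DMSO arrays. Its log2 fold change was 0.44 (95% interval -0.29 to 1.16; adjusted p = 0.711 from limma), with the low array being DMSO replicate 1. The value was 0.11 without that array and 0.76 without DMSO replicate 2, and neither passed the threshold. The lowest was *cox-6A*, which read 8.98 and 8.90 with RIF and 9.13 and 9.11 with DMSO. All 3 of its probe sets lay below 0, between -0.29 and -0.11. The groups also did not overlap for *cox-6B*, with a difference of 0.10, nor for *cox-5B*, with one of -0.10 (9.06 and 8.93 with RIF, 9.08 and 9.10 with DMSO). In contrast, *cox-4* read 8.25 and 8.26 with RIF, between the 7.79 and 8.60 of the DMSO arrays, with a difference of 0.06, or 0.46 without DMSO replicate 2. *cox-5A* read 8.22 and 8.21 against 8.00 and 8.24, with a difference of 0.09 and of -0.16 on its second probe set, and *cox-6C* had a value of 0.07. Subunits of this complex thus lay on both sides of 0.

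Of the 6 assembly factors of complex IV, 3 lay above 0 and 3 below, with a median of 0.01, and the lowest log2 fold change of all the members was among them. *cox-11*, which delivers copper to the catalytic core in yeast, read 4.68 and 4.59 on the RIF arrays and 4.97 and 5.65 on the DMSO arrays. The groups did not overlap, but DMSO replicate 2 lay further from DMSO replicate 1 than DMSO replicate 1 lay from the RIF arrays. Its log2 fold change was -0.67 (95% interval -1.43 to 0.08; unadjusted p = 0.0684 and adjusted p = 0.628 from limma). Without DMSO replicate 1 the value was -1.01 (unadjusted p = 0.00997) and passed the threshold, the one such call of a member under the alternatives tried, and without DMSO replicate 2 it was -0.33. Its lowest adjusted p under the alternatives was 0.449. The other copper factors were *cox-17*, a chaperone, at -0.07 (5.05 and 4.29 with RIF, 4.63 and 4.84 with DMSO) and *cox-19* at 0.39 (4.05 and 3.29 with RIF, 3.47 and 3.09 with DMSO). Both genes differed by over 0.5 between the RIF arrays, and their groups overlapped. For *cox-19*, leaving out RIF replicate 1 gave 0.01 and leaving out RIF replicate 2 gave 0.77. Of the heme A enzymes, *cox-15* was at 0.09 (4.37 and 4.57 with RIF, 4.37 and 4.40 with DMSO), and *cox-10* (1.54 and 1.52 with RIF, 1.38 and 1.06 with DMSO) was within the range of the foreign controls. *cox-18*, which inserts a mitochondrially made subunit in yeast, was at -0.10 with overlapping groups.

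ATP synthase uses the proton gradient to make ATP. Its 7 genes had a median of 0.10, with values from -0.16 to 0.29. The catalytic beta subunit gene *atp-2* read 9.23 and 9.23 on the RIF arrays, between the 9.35 and 8.92 of the DMSO arrays, a difference of 0.10 (95% interval -0.46 to 0.66). The alpha subunit gene *atp-1* read 7.46 and 7.45 with RIF, between the 7.60 and 7.36 with DMSO, and its difference was -0.02. Thus, for the subunits that form the catalytic head, the RIF arrays lay closer to each other than the DMSO arrays did, and inside their range. The highest value was that of *atp-3*, the subunit that joins the head to the peripheral stalk, which read 8.43 and 8.37 with RIF and 8.20 and 8.03 with DMSO. It was higher on both RIF arrays, with a log2 fold change of 0.29 (95% interval -0.12 to 0.69; adjusted p = 0.678 from limma). Stalk subunit genes *atp-4* and *atp-5* had values of 0.03 and 0.12, and the other probe sets of *atp-5* read -0.14 and 0.10. The subunit g genes *asg-1* (7.56 and 7.42 with RIF, 7.54 and 7.76 with DMSO) and *asg-2* (7.41 and 7.23 with RIF, 7.07 and 7.31 with DMSO) were at -0.16 and 0.13, both with overlapping groups.

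The b subunit of the stalk, outside the rule for the members, has a germline gene and a somatic gene. The germline gene *asb-1* read 7.29 and 7.29 with RIF, against 7.83 and 7.53 with DMSO, a log2 fold change of -0.39. The somatic gene *asb-2* read 6.27 and 6.06 with RIF, against 5.89 and 5.54 with DMSO, a log2 fold change of 0.45. Neither passed the threshold (unadjusted p = 0.0836 and 0.0789 from limma), though both were separated between the groups, in opposite directions, and the difference between them was not tested. All 14 germ line marker genes lay below 0 on the same arrays (44.3% of all genes), with a median of -0.51. Of these markers 1 fell (1.55% of all genes). Their summed linear level was 828 and 1084 on the RIF arrays, against 1293 and 1378 on the DMSO arrays. The part of these markers in the values of *asb-1* was not tested. The ATPase inhibitor genes *mai-1* and *mai-2* were at -0.73 (3.65 and 4.03 with RIF, 4.28 and 4.87 with DMSO) and 0.22, neither past the threshold.

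The ADP/ATP carrier exchanges the ATP made in the matrix for ADP of the cytosol. *ant-1.1*, the carrier gene that meets the rule, had the lowest p of all the members. It read 9.83 and 9.92 with RIF, against 9.54 and 9.40 with DMSO, and all its RIF values lay above its DMSO values. The log2 fold change was 0.40, a fold of 1.32 (95% interval -0.004 to 0.81; unadjusted p = 0.0515 and adjusted p = 0.596 from limma). It ranged between 0.24, when arrays were centred on ribosomal protein genes, and 0.49, with quantile normalization. The unadjusted p was under 0.05 with quantile normalization (0.0264, limma), the methods' t-test (0.0404) and the mean over a gene's probe sets (0.0468, limma). Under the other alternatives that held the gene it was over 0.05, such as 0.285 with ribosomal centring (limma). The lowest adjusted p of *ant-1.1* under the alternatives was 0.530. The other carriers, *ant-1.2*, *ant-1.3* and *ant-1.4*, read near the foreign controls and were at 0.04, 0.18 and -0.14.

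The spread between replicates was of a size with the differences between the groups, and larger in the DMSO pair than in the RIF pair. Over the 45 genes, the median size of the RIF minus DMSO difference was 0.16, while the RIF arrays differed by a median of 0.13 and the DMSO arrays by 0.25. In 31 genes the DMSO arrays, and in 22 the RIF arrays, were further apart than the groups. This held for at least 1 of the pairs in 40 genes. Such a pair is a difference of single arrays, which varies more than one of group means. DMSO arrays were over 0.5 apart for 12 genes, RIF arrays for 3 (*nduf-2.2*, *cox-17* and *cox-19*) and the groups for 2 (*cox-11* and *ucr-2.1*). Of those 12 genes, 9 read lower on DMSO replicate 2, the array with the lowest 5′ minus 3′ values. They were *nuo-1*, *nuo-4*, *nuo-5*, *nduf-7*, *nduf-9*, *ucr-1*, *ucr-2.1*, *ucr-2.3* and *cox-18*, while *cox-4*, *cox-7C* and *cox-11* read higher there. Without DMSO replicate 2, the RIF minus DMSO difference was -0.20 for *nuo-1*, -0.55 for *nuo-4*, -0.42 for *nuo-5*, -0.52 for *nduf-9*, -0.20 for *ucr-1*, -0.65 for *ucr-2.3* and -0.53 for *cox-18*. None of these passed the threshold, and the other 5 genes are given above with their complexes. The part of RNA quality in these differences was not tested. Without DMSO replicate 2, none of the members rose or fell, 24 lay above 0 and 21 below, and the median was 0.04. Set against each other singly, the RIF and DMSO arrays gave medians over the members of 0.08 (RIF replicate 1 minus DMSO replicate 1), -0.12 (RIF replicate 2 minus DMSO replicate 1), 0.07 (RIF replicate 1 minus DMSO replicate 2) and 0.02 (RIF replicate 2 minus DMSO replicate 2).

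**Figure D3:**
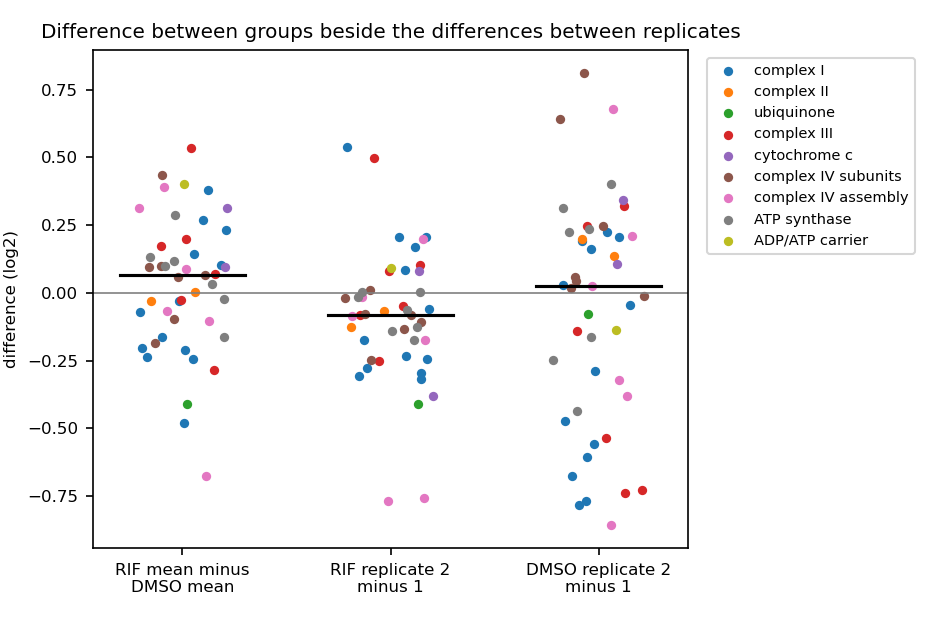
Differences on the log2 scale (y axis) for the 45 genes, coloured by complex, between the group means (left), between the RIF arrays (middle) and between the DMSO arrays (right), with the medians of the signed differences as lines. The DMSO arrays scatter most, with a median size regardless of sign of 0.25, against 0.16 between the groups and 0.13 between the RIF arrays.

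Other genes of the pathway were taken from lists by function. Of 64 listed, 51 were measured. The 11 that the list held of the subunits encoded by mitochondrial DNA, with *coq-5* and *lrpprc-1*, were not analysed here. None of the 51 rose or fell (1.27% and 1.55% of all genes), and their median was -0.02. Nearest to the threshold was *timm-23*, the pore of the inner membrane import machinery, which read 8.35 and 7.78 with RIF, against 6.95 and 7.20 with DMSO. Its log2 fold change was 0.996 (unadjusted p = 0.0168 and adjusted p = 0.501 from limma). It was counted in a list of 8 genes drawn up for the mitochondrial unfolded protein response. In this list the chaperone genes *hsp-6* and *hsp-60* were at -0.34 and 0.28, and *hsp-6* was the lowest. Among the assembly factors, *bcs-1*, which in yeast inserts the Rieske protein into complex III, read 4.98 and 5.21 with RIF and 5.84 and 5.65 with DMSO (log2 fold change -0.65, unadjusted p = 0.0179 and adjusted p = 0.510 from limma), while *nuaf-1*, for complex I, was highest at 0.24.

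All 4 genes of the upkeep and transcription of mitochondrial DNA were lower on both RIF arrays than on both DMSO arrays, though none passed the threshold. These were the polymerase gene *polg-1* (-0.42), *hmg-5*, which binds and packs the DNA (-0.37), the single-strand binding protein gene *mtss-1* (-0.25) and the RNA polymerase gene *rpom-1* (-0.20). *hmg-5* read 5.37 and 4.77 with RIF and 5.49 and 5.40 with DMSO, and *rpom-1* read 4.67 and 4.75 with RIF and 4.95 and 4.87 with DMSO. Of all genes, 16% read lower on both RIF arrays, as did 2047 of the 9431 genes whose mean level lay above the range of the foreign controls. On the same arrays 14 of 14 germ line and 9 of 10 oocyte markers lay below 0 (44.3% of all genes). The part of these markers in the values of the 4 genes was not tested. Of 17 genes of the TCA cycle 10 lay above 0 and none passed, from *sucg-1* at -0.75 to *idhb-1* at 0.56, and *sucg-1* read 4.64 and 4.99 with RIF, against 6.09 and 5.04 with DMSO.

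Ribosomal protein genes, the other large sets for basic cell functions, were compared as well. None of 59 mitochondrial ribosomal protein genes rose or fell, with values from -0.76 to 0.64, a median of -0.08 and 33 below 0. Of these genes 14 (23.7%) were lower on both RIF arrays and 3 (5.1%) higher, against 16% and 22.9% of all genes. An unadjusted p under 0.05 from limma was reached by 2, both lower. None of 75 cytosolic ones rose or fell, but 71 of these (94.7%) lay above 0, against 55.7% of all genes. Both RIF arrays were higher for 47 (62.7%), against 22.9% of all genes, and the median was 0.15. When arrays were centred on their cytosolic ribosomal protein genes, the median of the respiratory chain genes was -0.09 with 33 of 45 below 0, against -0.13 for all genes. The sign of the members' median therefore goes with the scaling.

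Muscle is rich in mitochondria, and most body wall muscle markers were lower with RIF. Of 13 such genes 6 fell (1.55% of all genes), none rose (1.27%) and 2 lay above 0. Both RIF arrays were lower for 10 of them (16% of all genes), and the median was -0.99. Their lowest adjusted p was 0.246 from limma. *unc-15* (paramyosin) read 5.86 and 5.41 with RIF, against 7.49 and 7.64 with DMSO, and *unc-27* (troponin I) read 5.10 and 4.71, against 7.44 and 6.92. Their linear values summed to 1314 and 1039 on the RIF arrays and to 2178 and 1926 on the DMSO arrays, and *unc-22* alone had both means in the range of the foreign controls. Over the alternatives tried, 3 to 7 of them fell. Hypodermal markers moved too, with 3 of 9 lower at the threshold and sums of 599 and 269 on the RIF arrays, against 1537 and 992 on the DMSO arrays. All 12 neuronal markers lay above 0 (55.7% of all genes), with a median of 0.51 and none past the threshold. Their sums were 1082 and 940 with RIF, against 743 and 709.5 with DMSO. Of 8 pharynx markers none passed and 5 lay above 0, with a median of 0.24. Of 12 intestinal markers 1 rose and 2 fell, with 6 above 0 and 6 below. None of the 45 respiratory chain genes passed the threshold on these same arrays. The part of these tissues in the values of the chain was not tested.

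**Figure D4:**
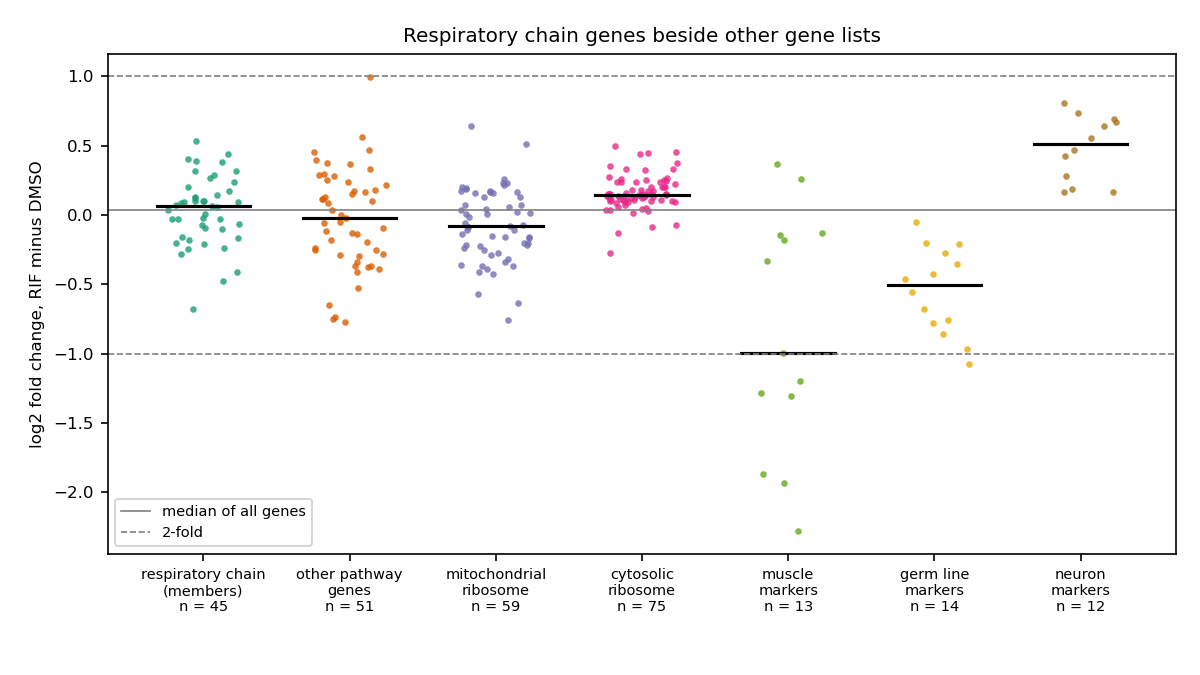
Log2 fold change of each gene, RIF minus DMSO (y axis), for the respiratory chain genes, the other pathway genes, both kinds of ribosomal protein genes and the markers of 3 tissues, with the median of each list as a bar, the median of all genes as a grey line and 2-fold changes as dashed lines. The respiratory chain genes centre on 0.07, against -0.99 for muscle, -0.51 for germ line and 0.51 for neuron markers.

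Of the 45 genes, 20 are read by probe sets whose endings mark probes shared with other transcripts, among them those of *isp-1*, *ant-1.1*, *atp-1*, *atp-2*, *atp-3* and *cox-7C*, and their values may include such transcripts. Of 14 genes with several probe sets, 10 had the same sign on each, the exceptions being *atp-5*, *cox-5A*, *gas-1* and *nuo-5*. For these 4 genes the log2 fold change lay within 0.5 of 0 on every probe set.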

How the data were processed

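Log2 values per probe set, from 0.21 to 11.59, were taken as the authors deposited them. They were made with RMA in Affymetrix Expression Console by the submitters' notes, and with GeneSpring GX by the methods. After removal of 77 controls from 22625 probe sets, 22548 were compared (RIF minus DMSO, two-sided, no filter on level) in R 4.3.3 with limma 3.58.1 (lmFit, eBayes, no intensity trend, 2.11 prior degrees of freedom, prior SD 0.19). Of these, 20766 name 1 gene, 887 several and 895 none, and they stand for 17118 genes. The procedure was tested on simulated data. An exact permutation test of 2 against 2 arrays cannot go below p = 0.333 and was not used. The number of arrays limits the precision, and p-values measure only the spread between arrays labelled as biological replicates.

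The text names, per complex, the 2 highest and the 2 lowest members, the catalytic or well studied subunits and paralog pairs, and, of the other pathway lists, genes past the threshold and the highest and lowest of each. The other genes named here were chosen after their values were seen. The members, lists, tests and alternatives were chosen with earlier results of these data known. The 14 alternatives were each array left out in turn, the replicate number as a block, quantile normalization, median and ribosomal centring, a filter on dim probe sets, a robust prior with intensity trend, the methods' t-test, the mean over a gene's probe sets, no probe sets with endings for shared probes and a 1.5-fold threshold. No sequences were used, and coordinates are not given since no source names the build.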

Additional observations from a re-analysis of the deposited data

How the results depend on the processing

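No member rose under any of the 14 alternatives, and none fell except *cox-11* without DMSO replicate 1, so that with 1 array left out the count of members that fell ran from 0 to 1. A group left with a single array is taken to vary as the other group does. The count of members higher on every RIF array (9) then ran from 11 to 21 and that of those lower (6) from 8 to 16, since fewer arrays have to agree, and the members' median (0.066) from -0.030, without RIF replicate 1, to 0.068. With median centring 12 members were lower on both RIF arrays and the median was 0.0076. With ribosomal centring 3 were higher and 13 lower, with medians of -0.093 for the members, -0.093 for the complex IV subunits and -0.060 for ATP synthase. Without probe sets for shared probes 27 members remained, 5 of them higher on both RIF arrays. The shares of all genes separated in the same way under these settings are not given. These counts of separated members are therefore not read as a result about the members. Values of 19 members kept their sign under every alternative, and those of 26, none of them called, changed it under at least 1, most often with ribosomal centring (14 members) and without DMSO replicate 1 (12). Genes past the threshold numbered 218 higher and 266 lower, with 346 higher without RIF replicate 2, 343 higher and 487 lower without DMSO replicate 2, 90 and 101 with the methods' t-test, 143 and 391 with ribosomal centring and 552 and 604 at 1.5-fold. The replicate numbers are only shared between the groups (correlation of the deviations of same-numbered arrays 0.10). Taking these numbers as a block gave 247 and 290 such genes, 0 members higher and 0 lower, and a lowest adjusted p of 0.611 among the members (limma). With 2 arrays per group, the 95% interval lay within 1.5-fold for 13 of the 45 members alone.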
